A study of Mus musculus with 5 samples.

Results

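Alveolar myofibroblasts are the contractile, elastin-laying mesenchymal cells that line the future alveolar entrance in the lung before birth. They receive platelet-derived growth factor from the epithelium through the receptor Pdgfra and hedgehog signal that induces Hhip, and they are a known source of Wnt5a and Fgf18. Zswim8 encodes the substrate adaptor of a ubiquitin ligase that drives decay of Argonaute proteins bound to certain microRNAs, a process known as target-directed microRNA degradation. The question here was how the transcripts of these cells differed between embryos that carried 1 mutant Zswim8 allele and embryos that carried 2.

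Whole lungs of 5 mouse embryos at E18.5 (the last days before birth) were dissociated with collagenase, and each lung gave 1 droplet-based 3′ single-cell RNA library. The genotype was Zswim8+/- in 2 libraries, called Het1 and Het2, and Zswim8-/- in 3 libraries, called KO1, KO2 and KO3. No other allele, strain or treatment is named in the labels, and no wild-type lung was analysed here. The libraries held 8722 to 13539 barcodes, of which 3129 to 4820 had 500 or more genes and no more than 15% of their UMIs from mitochondrial genes (unique molecular identifiers, each standing for 1 captured transcript). By Y-linked UMIs, Het1, Het2 and KO3 came from males, and KO1 and KO2 from females.

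A kept barcode was called an alveolar myofibroblast when it held a UMI of at least 3 of 7 genes (Pdgfra, Hhip, Wnt5a, Fgf18, Enpp2, Aspn and Stc1). It also had to lack UMIs of Tcf21, Actg2, Ptprc, Epcam and Cdh5, to show at most 2 of 5 adventitial genes, and not to show Mki67 and Top2a together. The rule found 383 of 19491 kept barcodes, 84 in Het1, 84 in Het2, 86 in KO1, 52 in KO2 and 77 in KO3. No member barcode was shared between libraries, and 1 member was marked as a doublet. Of the 383 members, 106 had just the 3 genes needed, and 156 other kept barcodes that met the remaining terms had only 2. Members were thus chosen by the measured UMIs of these genes, so their levels are given below as a description and are not tested.

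The label did not hold for every member. Mesothelial cells form the outer lining of the lung, and 74 of the 383 members carried at least 3 of 4 mesothelial markers (Msln, Upk3b, Wt1 and Lrrn4), with none at exactly 2. There were 12, 15, 19, 17 and 11 of them in Het1, Het2, KO1, KO2 and KO3. In these barcodes Upk3b, a mesothelial surface protein, stood at 1182 to 2524 CPM (UMIs of a gene scaled to a common library total) and Pdgfra at 5.77 to 14.1 CPM, and they came in through Hhip, Enpp2, Fgf18 and Wnt5a. Mesenchymal barcodes were defined as kept barcodes with at least 3 UMIs of at least 2 of Col1a1, Col1a2 and Col3a1. They also had to lack UMIs of Ptprc, Epcam and Cdh5. The other 309 members were split by Tgfbi, an extracellular matrix protein that marked the class against the other mesenchymal barcodes. At least 3 Tgfbi UMIs were found in 263 of them, in 65, 64, 50, 26 and 58 per library, while 27 had none, 10 had 1, 9 had 2 and 10 had just 3. The remaining 46 barcodes, 7, 5, 17, 9 and 8 per library, included cells with cartilage and fibroblast genes, such as Col2a1 at 3073 CPM in Het2 and 1275 CPM in KO1. Both splits were made after values had been seen, so the counts of calls, Crh, Agt and Igfbp3 are given for all 383 members and for the 263 Tgfbi-bearing ones. Most other genes and the gene lists are given for the Tgfbi-bearing members alone, and those values rest on the split. At least 2 markers of an epithelial, endothelial or immune list were found in 59, 41, 68, 33 and 54 members per library. Of the Tgfbi-bearing members, 20, 41, 15, 15 and 19 per library did not reach that number.

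**Figure D1:**
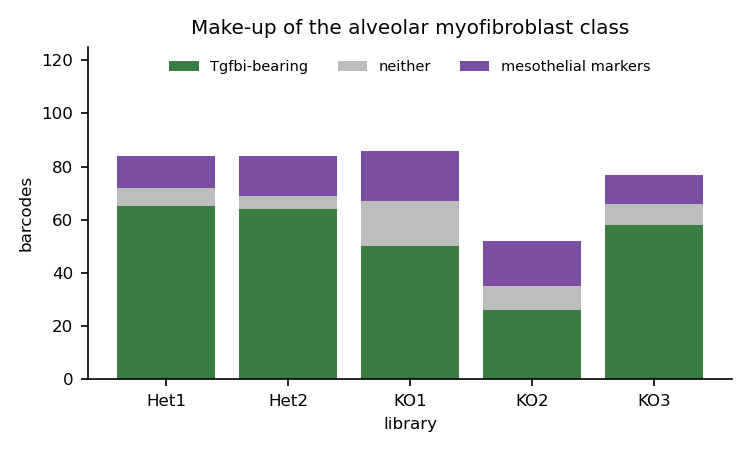
Number of barcodes per library (stacked bars) called alveolar myofibroblasts by the rule, split into those with at least 3 Tgfbi UMIs and no mesothelial identity, those with mesothelial markers, and those with neither. The Tgfbi-bearing part holds 26 barcodes in KO2 and 50 to 65 in the other libraries.

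In the Tgfbi-bearing members the levels of the genes that chose them were as follows, and they are no check of the label. Pdgfra, the receptor for platelet-derived growth factor, stood at 1052 and 1058 CPM in Het1 and Het2, against 760, 601 and 747 CPM in KO1 to KO3. Hhip, a hedgehog-induced antagonist of the hedgehog ligand, lay between 1229 and 1862 CPM in all 5 libraries, with Het and KO overlapping. Enpp2, the secreted enzyme that makes lysophosphatidic acid, stood at 971 and 887 CPM in Het and at 472, 308 and 672 CPM in KO. The Pdgfra and Enpp2 levels of the KO libraries lay below both Het libraries, but these genes chose the cells. Wnt5a ranged from 346 to 496 CPM and Fgf18, a fibroblast growth factor of this stage, from 62.7 to 116 CPM. Aspn was found in 0% to 6.9% of these barcodes per library, so it hardly contributed. The smooth muscle actin gene Acta2 stood at 590.5 to 832 CPM, against 3527 to 5803 CPM in Actg2-positive smooth muscle barcodes. The mesothelial list summed to 6.09 to 36.1 CPM, the cartilage list to 0 to 5.70 CPM, and the Schwann cell marker Sox10 was at 0.

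Against the other mesenchymal barcodes, the genes most raised in every library were described with no test, since the rule had set the class apart. Egfem1, Greb1, Cyp2e1, Crh, Col6a4 and Tgfbi led, each at least 3.28 higher on the log2 scale in the library where the ratio was lowest. Notum, a secreted enzyme that switches off Wnt ligands, Agt, which encodes angiotensinogen, and the prostaglandin transporter gene Slco2a1 were also among the first 15. Crh, which encodes corticotropin-releasing hormone, the peptide that starts the stress-hormone cascade, averaged 669.8 CPM in these cells and 42.4 CPM in the other mesenchymal barcodes. Crh, Agt and Cyp2e1 had no part in the rule, while the high Tgfbi ratio was fixed by the split on its UMIs.

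The members' share of cells was compared over libraries. All 383 members made up 1.87% ± 0.18 (SD, n = 2) of kept barcodes in Het and 2.08% ± 0.61 (SD, n = 3) for KO, and the groups overlapped (exact two-sided permutation test, p = 0.9). Relative to the number of mesenchymal barcodes they stood at 16.8% ± 0.86 (SD, n = 2) for Het against 10.8% ± 0.71 (SD, n = 3) for KO, with no overlap (exact permutation p = 0.1, the smallest that 2 against 3 libraries allow). A few members missed the collagen cut of that denominator and were still counted as members. Membership rests on the rule genes, and Pdgfra and Enpp2 lay lower in every KO library in the Tgfbi-bearing members. Their part in both shares was not tested. The Tgfbi-bearing members made up 14.2% ± 0.18 (SD, n = 2) and 7.12% ± 1.35 (SD, n = 3) of mesenchymal barcodes without mesothelial markers. That share is a description, since Tgfbi, which set the subset, lay lower in KO: over all members it stood at 1159 and 1124 CPM in Het and at 476, 472 and 909 CPM in KO (log2 fold change -0.88, edgeR adjusted p 0.218). Its part in the results for Tgfbi-bearing members was not tested. The other mesenchymal barcodes numbered 399 and 437 in the Het libraries and 660, 457 and 658 in the KO libraries.

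For gene levels, UMIs were summed over the members of each library and fitted with edgeR across all genes that passed a low-count filter. Levels beside a fold change are CPM on library sizes scaled by TMM (a normalisation to the bulk of the genes), and p-values are edgeR quasi-likelihood p-values adjusted over all genes tested. Zswim8 itself did not fall in the KO-labelled libraries: it stood at 47.2 and 47.1 CPM in Het and at 63.6, 48.2 and 63.7 CPM in KO (log2 fold change 0.32, SE 0.21, edgeR adjusted p 0.705). A 3′ count can miss an upstream deletion, so this level neither checks nor contradicts the labels.

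Over all 383 members, an edgeR adjusted p under 0.05 was reached by 8 of 9103 genes (0.0879%), 3 of them higher (0.0330%) and 5 lower (0.0549%) in KO. Crh, Itm2a and Tenm3 rose, and C3, Cyp2e1, Ccdc3, Htra1 and Igfbp3 fell. Over the 263 Tgfbi-bearing members, 28 of 6280 genes passed (0.446%), 9 higher (0.143%) and 19 lower (0.303%), and 5 of the 8 were among them (Crh, Cyp2e1, Ccdc3, Htra1 and Igfbp3). An unadjusted p under 0.05 was found for 9.32% of the genes in the first fit and 9.04% in the second. The groups did not overlap for 25.9% of the genes in the first fit and 25.5% in the second, so a gap between 2 Het and 3 KO libraries was common. With a sex covariate the counts were 2 and 7, of which 2 and 3 were among the 8 and the 28. Leaving out 1 KO library at a time gave 2 to 79 and 7 to 31.

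C3, Itm2a and Tenm3 lay almost wholly outside the Tgfbi-bearing members. C3, the central complement component, stood at 1172 and 609 CPM in the mesothelial barcodes of Het1 and Het2, against 141, 122 and 216 CPM in those of KO1 to KO3. In the Tgfbi-bearing members its level was 3.80 CPM or less in every library. In a fit of the mesothelial barcodes alone C3 fell with a log2 fold change of -2.44 and an edgeR adjusted p of 0.047. Itm2a, which encodes a membrane protein of developing connective tissue, stood at 4.06 to 17.1 CPM in the Tgfbi-bearing members of all libraries. Mesothelial barcodes held 92, 127, 186, 230 and 221 of the 110, 148, 342, 283 and 284 Itm2a UMIs of all members in Het1, Het2 and KO1 to KO3, at 325 and 244 CPM in Het and 309, 518 and 598 CPM in KO. In the barcodes with neither identity Itm2a stood at 315 and 326 CPM in Het and at 882, 492 and 869 CPM in KO, and the share of such barcodes among all members was 7.14% ± 1.68 (SD, n = 2) for Het against 15.8% ± 4.86 (SD, n = 3) for KO. Tenm3, an adhesion receptor gene, stood at 56.5 and 44.2 CPM in Het and at 126, 113 and 146 CPM in KO mesothelial barcodes, and at 3.76 CPM or less in the Tgfbi-bearing members. None of these 3 genes reached the count needed for the fit of the Tgfbi-bearing members.

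**Figure D2:**
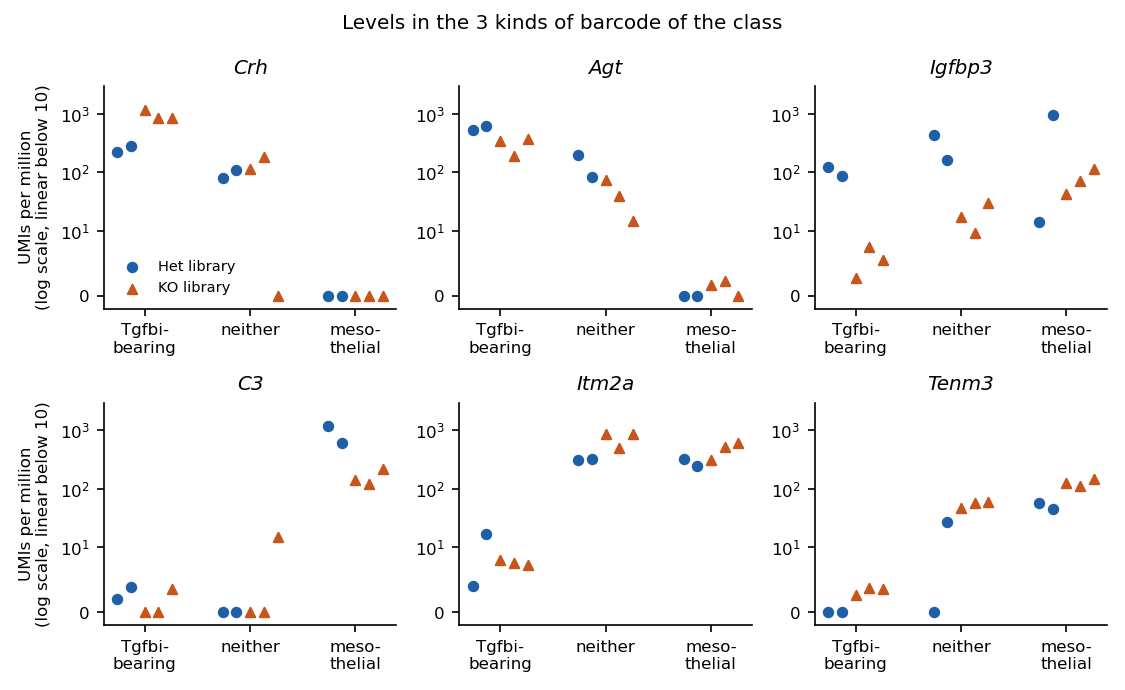
Summed level per library (CPM, log axis that is linear below 10) of 6 genes in the Tgfbi-bearing members, in members with neither identity, and in members with mesothelial markers. Each point is 1 library, circles for Het and triangles for KO. Most Crh and Agt UMIs of the members lie in the Tgfbi-bearing ones, and some lie in members with neither identity. C3 stands at 122 CPM or more only in mesothelial barcodes.

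Among the genes that rose in the Tgfbi-bearing members, Crh had the lowest adjusted p. Its gene lies on chromosome 3, 19693401 to 19695396, minus strand (GRCm38, GENCODE M21), and encodes the hormone precursor. It stood at 240 and 297 CPM in Het1 and Het2, against 1242, 863 and 879 CPM in KO1 to KO3. Every KO library lay above both Het libraries. The log2 fold change was 1.89, SE 0.19, with an edgeR adjusted p of 2.31e-05, and the call held without each library in turn and with the sex covariate (log2 fold change 1.71, adjusted p 0.00393). Over all 383 members the levels were 143 and 143 CPM in Het and 411, 299 and 480 CPM in KO (log2 fold change 1.47, SE 0.20, edgeR adjusted p 0.0184). That call was lost without KO1 (adjusted p 0.0521). Where membership was decided on barcodes thinned to 4000 UMIs, the log2 fold change was 1.43 in Tgfbi-bearing members (adjusted p 0.263) and 1.37 in all members (adjusted p 0.0780). The genes that had to be absent were then also read on thinned counts, which is a looser term. Tgfbi-bearing members numbered 84, 72, 52, 29 and 83 in Het1, Het2 and KO1 to KO3, so depth and membership both differed from the main fit. No Crh UMI lay in a mesothelial member, and members held 27.6% to 36.6% of all Crh UMIs of the kept barcodes.

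The share of cells with Crh, and the UMIs per cell with it, lay higher in every KO library than in both Het libraries. A Crh UMI was found in 43.1% and 45.3% of Tgfbi-bearing members in Het1 and Het2 and in 86.0%, 69.2% and 77.6% in KO1, KO2 and KO3. With each cell thinned to 4000 UMIs, which left out 16 shallower cells, the shares were 31.7%, 44.8%, 86.0%, 61.5% and 70.2%. Immune barcodes, which should lack the gene, showed Crh in 0.10% to 0.781% at median depths of 12269 to 13812 UMIs, against 6876 to 9669 UMIs in the myofibroblasts. Among cells with Crh the median was 2 and 3 UMIs in the Het libraries and 8, 9 and 7 UMIs in the KO libraries. The largest single cell held 8.42% to 20.6% of a library's Crh UMIs.

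Agt went the other way without passing the test. Angiotensinogen is the precursor that renin cleaves to start the angiotensin cascade, and its gene lies on chromosome 8, 124556534 to 124569706, minus strand. In Tgfbi-bearing members it stood at 557 and 643 CPM in Het and at 367, 193 and 379 CPM in KO, with no overlap. The log2 fold change was -0.90, SE 0.21, with an edgeR adjusted p of 0.0599, and DESeq2 gave an adjusted p of 0.0298. Over all members the levels were 333 and 305 CPM against 129, 68.0 and 208 CPM, and the adjusted p was 0.176. With only mesothelial barcodes left out the change was -1.11 with an edgeR adjusted p of 0.0449, so the call depended on which members were summed. With the sex covariate the change was -0.61 in all members (edgeR adjusted p 0.809) and -0.66 in Tgfbi-bearing ones (edgeR adjusted p 0.75). An Agt UMI was found in 89.2% and 95.3% of Tgfbi-bearing members in Het and in 80.0%, 50% and 79.3% in KO. Within the Tgfbi-bearing KO cells, Agt was found in 36 of 43, 13 of 18 and 37 of 45 cells with Crh and in 4 of 7, 0 of 8 and 9 of 13 cells without it. In Het1 and Het2 it was found in 25 of 28 and 29 of 29 cells with Crh and in 33 of 37 and 32 of 35 cells without it.

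**Figure D3:**
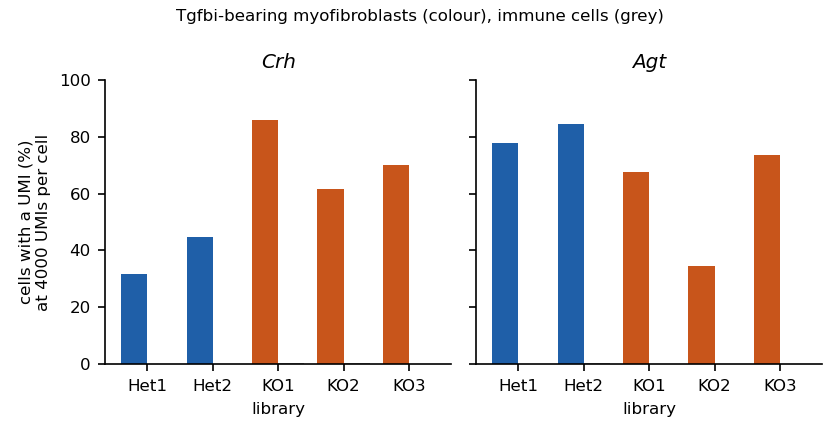
Share of cells with at least 1 UMI of Crh (left) and Agt (right) after thinning each cell to 4000 UMIs, for Tgfbi-bearing myofibroblasts (coloured bars) and immune cells (grey bars) of each library. For Crh the Het libraries reach 31.7% and 44.8% and the KO libraries 61.5% to 86.0%, and the immune bars stay at 0.5% or below.

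Among the genes that fell, Igfbp3 moved furthest. It encodes the main carrier of insulin-like growth factors in blood, and its gene lies on chromosome 11, 7206086 to 7213923, minus strand. Tgfbi-bearing members held 132 and 88.5 CPM in Het1 and Het2 and 2.92, 7.74 and 5.55 CPM in KO1, KO2 and KO3. The log2 fold change was -4.31, SE 0.41, with an edgeR adjusted p of 2.09e-05, and the call held without each library in turn and with the sex covariate (log2 fold change -4.23, adjusted p 0.00393). An Igfbp3 UMI was found in 32.3% and 17.2% of these cells in Het and in 2.0%, 3.8% and 5.2% in KO, and 1 cell of Het2 held 48.9% of that library's UMIs. Over all members the levels were 108 and 505 CPM in Het and 27.7, 43.3 and 47.5 CPM in KO (log2 fold change -2.99, adjusted p 0.0491). That call was lost without KO1 or KO2 and with the sex covariate (adjusted p 0.534), and the change ran from -3.69 to -1.46 without 1 library. The higher Het2 value came from mesothelial barcodes at 952 CPM. Igfbp7, a related secreted binding protein, fell from 86.4 and 88.5 CPM to 23.3, 15.5 and 44.4 CPM in Tgfbi-bearing members (log2 fold change -1.49, SE 0.32, edgeR adjusted p 0.0437), a call kept only when KO3 was left out. Igf1, the growth factor itself, stood at 1161 and 1133 CPM in Het and at 913, 874 and 1038 CPM in KO and did not pass (adjusted p 0.57).

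Postn, Mgp and Htra1 were also lower in the Tgfbi-bearing members. Postn, a matrix protein of activated fibroblasts, stood at 75.6 and 102 CPM in Het and at 8.75, 11.6 and 25.9 CPM in KO (log2 fold change -2.35, SE 0.36, edgeR adjusted p 0.0048). Mgp, an inhibitor of mineralisation, was one of the most abundant transcripts and went from 11736 and 9816 CPM to 5658, 5791 and 7029 CPM (log2 fold change -0.81, SE 0.11, edgeR adjusted p 0.00237, but 0.0531 without KO2). Htra1, a secreted protease, went from 589 and 984 CPM to 306, 371 and 342 CPM (log2 fold change -1.22, SE 0.19, edgeR adjusted p 0.0048). Without Het2 its change was -0.80 with an adjusted p of 0.17. None of these groups overlapped. With the sex covariate Postn, Mgp and Htra1 changed by -1.77, -0.62 and -1.20 and did not pass (edgeR adjusted p 0.182, 0.168 and 0.186). Adamts4, an aggrecan-cleaving protease (-1.20), Frem1, a basement membrane protein (-1.43), and Olfml2b (-1.51) were called too, each lower in all KO libraries, with adjusted p of 0.0401, 0.0437 and 0.0299 and each lost when 3 or more of the libraries were left out in turn.

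Cyp2e1, Ccdc3, Lhfp and Ager fell as well. Cyp2e1, a cytochrome P450 enzyme, went from 190 and 167 CPM to 81.7, 85.1 and 50 CPM (log2 fold change -1.37, SE 0.24, edgeR adjusted p 0.0141, but 0.0824 without KO3). It was found in 35.4% and 40.6% of Tgfbi-bearing cells in Het and in 24.0%, 15.4% and 22.4% in KO. Ccdc3, a secreted protein gene, went from 242 and 203 CPM to 128, 89.0 and 85.1 CPM (log2 fold change -1.15, SE 0.21, edgeR adjusted p 0.0209), a call lost without Het1, KO2 or KO3. Lhfp (-1.16, adjusted p 0.0234) was lost without Het2 or KO2, and Ager (-1.74, adjusted p 0.0437), a receptor best known from alveolar type 1 cells, was kept only without Het1. The summed epithelial list ranged from 479 to 684 CPM in Het and from 372 to 1063 CPM in KO, and its part in the Ager result was not tested.

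Other genes rose beside Crh in the Tgfbi-bearing members. Mustn1, a small nuclear protein of muscle and skeletal development, stood at 38.9 and 55.1 CPM in Het and at 160, 151 and 130 CPM in KO (log2 fold change 1.61, SE 0.25, edgeR adjusted p 0.0048), and this call held without each library in turn. Vcan, a large matrix proteoglycan, went from 108 and 126 CPM to 230, 271 and 222 CPM (log2 fold change 1.02, SE 0.19, edgeR adjusted p 0.0234, lost without Het1, Het2 or KO2). Tnfaip6, which encodes a hyaluronan-binding protein, went from 25.9 and 17.7 CPM to 122, 73.5 and 55.5 CPM (log2 fold change 1.90, SE 0.39, edgeR adjusted p 0.0374, lost without Het2, KO1 or KO2). In each case the KO libraries lay above both Het libraries. With the sex covariate Mustn1, Vcan and Tnfaip6 did not pass (edgeR adjusted p 0.168, 0.372 and 0.708). Rgs5 (1.12, adjusted p 0.0437), a G-protein regulator best known from pericytes, Lsp1 (0.81, adjusted p 0.0437) and Sntg2 (2.13, adjusted p 0.0437) also rose, and each was lost in 3 or more of the 5 fits without 1 library. The pericyte marker list summed to 455 to 475 CPM in Het and 441 to 534 CPM in KO, and its part in the Rgs5 result was not tested. Akap12, which ranked next, stood at 19.4 and 7.87 CPM in Het and 35.0, 101 and 48.1 CPM in KO and did not pass (adjusted p 0.0705). Xist was also called, being at 0 in the 3 male libraries and present in the 2 female ones, and is no genotype result.

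**Figure D4:**
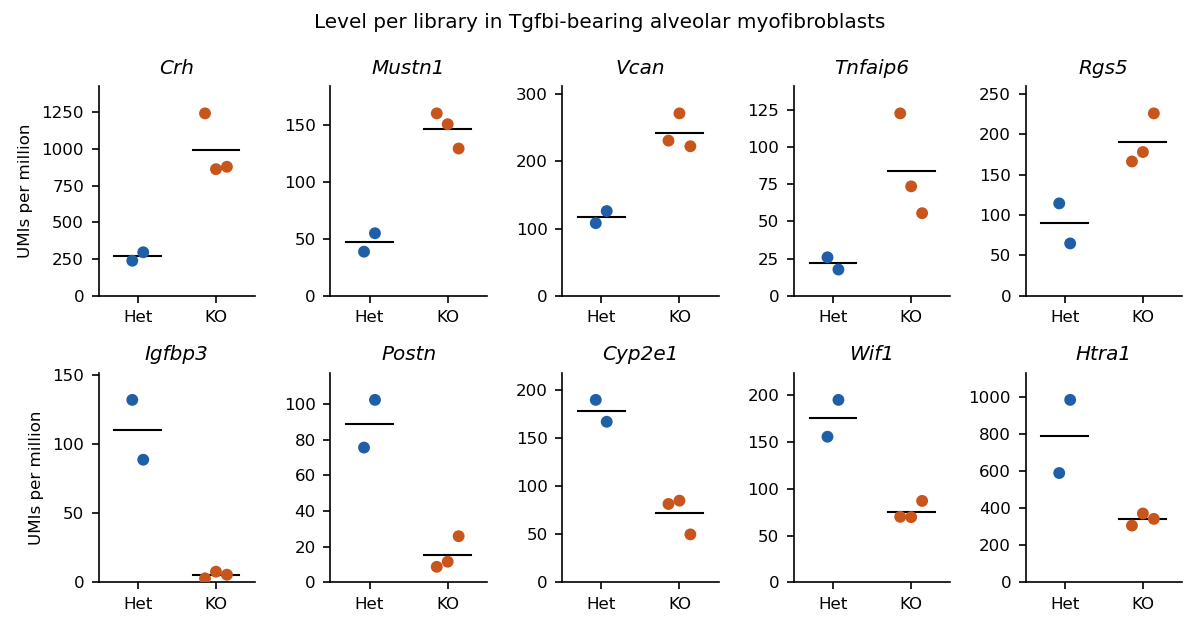
Level per library (CPM on TMM-scaled library sizes, axes from 0) of 10 called genes in Tgfbi-bearing members. Each point is 1 library and the line is the group mean. In every panel the 2 Het points and the 3 KO points do not overlap, with Crh at 240 and 297 in Het and 863 to 1242 in KO.

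Few genes of the signalling lists passed, beside 0.446% of all 6280 genes tested. At that share lists this small, here and below, would mostly hold no call. Of 27 Wnt genes, 17 were tested in the Tgfbi-bearing cells, 1 fell and none rose, and 8 lay lower in KO with no overlap, where 12.9% of all genes did. The gene that fell was Wif1, a secreted Wnt inhibitor, from 155 and 195 CPM to 70.0, 69.6 and 87.0 CPM (log2 fold change -1.18, SE 0.22, edgeR adjusted p 0.0209), a call lost without Het2 or KO2. Among those that did not pass were the receptor gene Fzd1 (-0.74, adjusted p 0.193) and Notum (-0.78, adjusted p 0.283). The median of the list was -0.33, beside 0.01 over all genes tested. Of 13 hedgehog genes, 9 were tested and none passed. Ptch1, the hedgehog receptor and itself a target, stood at 257 and 234 CPM in Het and at 207, 275 and 268 CPM in KO. None of 7 tested FGF genes, 2 PDGF genes, 20 TGF-beta and BMP genes or 13 mesenchymal transcription factors passed. The hedgehog-responsive factor Foxf1 stood at 270 and 266 CPM in Het and 277, 236 and 422 CPM in KO.

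Contractile genes did not pass in either direction. Of 16 tested, 5 lay higher and 3 lower in KO with no overlap, where 12.6% and 12.9% of all genes did, and the list's median was 0.09. Acta2 stood at 663 and 777 CPM in Het and at 642, 847 and 855 CPM in KO (adjusted p 0.884). Tagln, an actin-binding protein gene, stood at 512 and 592 CPM against 627, 623 and 803 CPM (adjusted p 0.585). None of 14 collagen genes passed, with 11 of them negative.

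Of 16 elastic fibre genes tested, none passed, and 9 lay lower and 2 higher in KO with no overlap, beside 12.9% and 12.6% of all genes. Eln, which encodes elastin, stood at 7310 and 7927 CPM in Het and at 6232, 3702 and 6535 CPM in KO (log2 fold change -0.47, SE 0.16, edgeR adjusted p 0.319). Fbln1, a fibulin of elastic fibres, had the lowest adjusted p of the list (0.0701), with a change of -0.73. Lox, the enzyme that cross-links elastin and collagen, stood at 421 and 513 CPM in Het and at 647, 573 and 624 CPM in KO (log2 fold change 0.40, adjusted p 0.421).

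Of 9 tested genes of corticotropin-releasing hormone and the glucocorticoid response, Crh was the 1 that passed. Tsc22d3, a classical glucocorticoid-induced gene, stood at 335 and 360 CPM in Het and at 172, 155 and 244 CPM in KO (log2 fold change -0.83, SE 0.19, adjusted p 0.0652). Fkbp5, another, stood at 175 and 175 CPM against 108, 96.7 and 161 CPM (adjusted p 0.537). Both lay lower in all KO libraries. Of 13 tested immediate early genes, which dissociation of tissue induces and which were chosen after values were seen, all 13 had negative changes, as did 3094 of all 6280 genes tested. Among the 13 only Jun passed, from 3523 and 3065 CPM to 1846, 1486 and 2372 CPM (log2 fold change -0.79, SE 0.16, edgeR adjusted p 0.0305, lost without Het1 or KO2). Dusp1, which is both an immediate early and a glucocorticoid-induced gene, stood at 600 and 574 CPM in Het and 327, 217 and 435 CPM in KO. The part of dissociation in these values was not tested. None of 13 tested microRNA host or trigger transcripts and none of 8 tested G1 cyclin and inhibitor genes passed.

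Markers of other cell types were summed as lists, which cannot tell free RNA from doublets or from transcripts of the members themselves. In the Tgfbi-bearing members the erythroid list summed to 19729 to 32829 CPM in Het and 6307 to 25954 CPM in KO, the immune list to 74.1 to 95.4 CPM and 26.3 to 68.4 CPM, and the endothelial list to 60.8 to 104 CPM and 37.6 to 67.1 CPM. The immune list did not overlap between the groups, nor did the cartilage list, at 4.06 and 5.70 CPM in Het and 0, 0 and 3.60 CPM in KO. These cartilage values rest on very few UMIs, since the sums held 266159 to 555256 UMIs per library. Their part in the called genes was not tested.

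Nkx6-1, a homeobox gene, was too sparse for the fit. Over all members it had 4, 3, 8, 14 and 3 UMIs in Het1, Het2, KO1, KO2 and KO3. With UMIs pooled within each group, the ratio of KO to Het was 2.31 with a 95% counting interval from 0.970 to 6.32. On the CPM of single libraries the groups did not differ (exact two-sided permutation p = 0.4). It had no UMI in the Tgfbi-bearing members of any library. Mesothelial members held 4, 3, 7, 13 and 2 of those UMIs.

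To see whether a change differed between mesenchymal classes, genotype by class terms were fitted with the library as a block. The comparison classes were alveolar fibroblasts, the Tcf21-bearing lipid-handling neighbours of the myofibroblasts, and Actg2-bearing smooth muscle, both taken without mesothelial barcodes beside the Tgfbi-bearing members. Against alveolar fibroblasts 6 of 7513 genes passed (0.0799%), all 6 with a more positive change in the myofibroblasts. Eln went from a mean of 7964 CPM to 2349 CPM in alveolar fibroblasts (log2 fold change -1.75, SE 0.13, edgeR adjusted p 6.33e-07), beside -0.47 in the myofibroblasts, and the difference of the changes was 1.23, SE 0.17, with an edgeR adjusted p of 0.00158. Lox fell by 0.86 on the log2 scale in alveolar fibroblasts (adjusted p 0.00048), and the difference was 1.26, SE 0.16, with an edgeR adjusted p of 0.00158. Fbn2, a fibrillin of developing elastic fibres, fell by 1.10 there (adjusted p 0.000443), and the difference was 1.34, SE 0.20, with an edgeR adjusted p of 0.00464. In the myofibroblasts none of these 3 elastic fibre genes passed, with changes of -0.47 for Eln, 0.40 for Lox and 0.21 for Fbn2. With all members, the difference for Lox was 1.03 and passed (edgeR adjusted p 0.0399). For Eln and Fbn2 the differences were then 0.99 and 0.86, and neither passed (edgeR adjusted p 0.268 and 0.471). The Eln and Fbn2 calls thus depended on which barcodes were summed, and the splits were made after values had been seen.

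Vcan and Col14a1 differed in the same sense. The rise of Vcan in the myofibroblasts stood beside -0.12 in alveolar fibroblasts, and the difference was 1.17, SE 0.22, with an edgeR adjusted p of 0.0339. For Col14a1, a fibril-associated collagen, the changes were 1.01 and -0.45, and neither passed within its class (edgeR adjusted p 0.162 and 0.0821). The difference was 1.45, SE 0.26, with an edgeR adjusted p of 0.0339. Mgp fell in both classes, by 0.81 and 1.08 on the log2 scale, and the difference did not pass (0.28, SE 0.14, adjusted p 0.698). Igfbp3 also fell in both, by 4.31 and 2.02, and the difference of -2.33, SE 0.48, did not pass (adjusted p 0.0679). For Crh no comparison was informative, because alveolar fibroblasts averaged 0.958 CPM in Het and 8.27 CPM in KO.

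**Figure D5:**
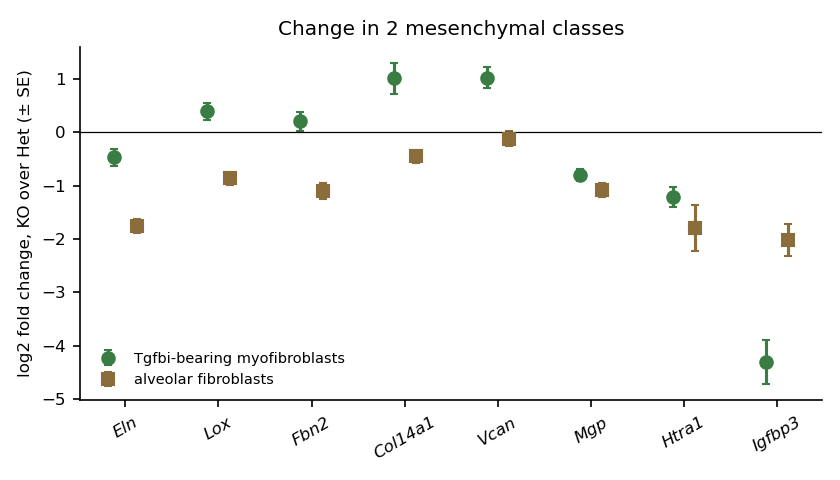
Log2 fold change of KO over Het (points, with SE as bars) of 8 genes in Tgfbi-bearing myofibroblasts and in alveolar fibroblasts. Eln stands at -0.47 in myofibroblasts and -1.75 in alveolar fibroblasts, while Mgp stands at -0.81 and -1.08.

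Against smooth muscle 2 of 8183 genes passed (0.0244%). Thbs1, a matrix glycoprotein that activates TGF-beta, had a change of 0.51 in the myofibroblasts and -1.06 in smooth muscle. Neither change passed within its class (edgeR adjusted p 0.437 and 0.188), and the difference was 1.57, SE 0.19 (edgeR adjusted p 0.00163). Tnfaip6 changed by 1.90 and -3.20, with a difference of 5.08, SE 0.70 (edgeR adjusted p 0.0043). Its change in smooth muscle did not pass there (edgeR adjusted p 0.262). Crh stood at 74.9 CPM in Het and 166 CPM in KO smooth muscle, with a change of 1.13 that did not pass there (adjusted p 0.641), and the difference from the myofibroblasts of 0.90, SE 0.52, did not pass either (adjusted p 0.92). Igfbp3 fell in smooth muscle too, from a mean of 46.5 CPM in Het to 1.31 CPM in KO (log2 fold change -5.11, edgeR adjusted p 0.0272). Its difference from the myofibroblasts was 0.70 and did not pass (edgeR adjusted p 0.977). With all 383 members, 26 of 9786 genes passed against alveolar fibroblasts (0.266%) and 1 of 9242 against smooth muscle (0.0108%).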

How the data were processed

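The deposited matrices held raw UMI counts, 1 whole number for each gene in each barcode; per the file headers, they are output of Cell Ranger 4.0.0 as run by the authors. The submitters' processing notes name mm10, and the annotation and barcode filter are not given in the sources used here. Libraries held 56608582 to 93708304 UMIs. Coordinates came from GENCODE M21 by Ensembl ID, counted from 1.

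Members and lists were chosen with earlier results of these data known. Member UMIs were summed per library (266159 to 555256 in Tgfbi-bearing members), because cells are not replicates, and fitted with edgeR 4.0.16 (TMM, low-count filter, quasi-likelihood test, two-sided, Benjamini-Hochberg adjusted p under 0.05) in R 4.3.3. The script was tested on simulated data with a common dispersion for all genes. There it recovered 50% of log2 changes of 1 in all members and 44.7% in Tgfbi-bearing ones. A gene that did not pass is thus not shown to be unchanged. Each library came from 1 embryo. Genotype by class fits had the library as a block. Scrublet-style scores in scanpy 1.11.5 marked doublets at 0.8% per 1000 barcodes. Intervals cover counting error only. Replicate numbers 1 and 2 occur in both groups, but no label says that they mark a pair.

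Named genes were, in each direction, the 12 with the largest change among called genes without overlap and at least 10 CPM in the higher group, filled up from genes with an unadjusted p under 0.05, plus list genes past the threshold and Crh, Agt, Nkx6-1 and Zswim8. For the class description, the first 15 genes with at least 50 CPM were ranked by their lowest ratio. Genotype by class fits named the 5 largest differences. Alternatives were library size alone, DESeq2 1.42.0, other filters, a sex covariate, a replicate block, leaving out libraries, and other memberships. Mixed barcodes were those with at least 2 markers of the epithelial, endothelial or immune list. A called gene is not reported here.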

Additional observations from a re-analysis of the deposited data

Results flagged for a closer look

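Changes between Het and KO that differed between mesenchymal classes were listed from the genotype by class fits, each with an edgeR adjusted p under 0.05, for the genes with the largest differences. In the Tgfbi-bearing members against alveolar fibroblasts these were Col14a1 (1.45 on the log2 scale), Fbn2 (1.34), Lox (1.26), Eln (1.23) and Vcan (1.17), and against smooth muscle Tnfaip6 (5.08) and Thbs1 (1.57).

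With all 383 members against alveolar fibroblasts, the largest differences were those of Lgals7 (-7.47), C1qtnf3 (6.98), Actc1 (-6.22), Ccl2 (-5.58) and Igfbp2 (3.25). Lgals7, an epithelial galectin, averaged 119 and 98.0 CPM in Het and KO members and 0 and 18.1 CPM in Het and KO alveolar fibroblasts. Ccl2, a monocyte chemokine, averaged 38.4 and 16.7 CPM in members and 1.60 and 35.8 CPM in alveolar fibroblasts. Igfbp2, a binding protein of insulin-like growth factors, averaged 85.3 and 107 CPM in members and 404 and 64.6 CPM in alveolar fibroblasts. None of the 5 was among the calls for Tgfbi-bearing members.

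Against smooth muscle, Higd1b, a gene best known from pericytes, differed by 4.98 with all members. In the members with neither Tgfbi nor mesothelial identity it stood at 78.7 and 0 CPM in Het and at 329, 501 and 0 CPM in KO, and in the Tgfbi-bearing members at 7.51 to 22.3 CPM.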

How the results depend on the processing

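Over all 383 members, the count of 8 calls became 30 with DESeq2 (5 of them among the 8) and 285 with no low-count filter. It became 2 with a sex covariate, 199 with at least 4 of the 7 genes and 2 with membership decided after thinning. Without barcodes that showed another class's markers it was 2, without mesothelial barcodes 32, and in Tgfbi-bearing members 28. In the Tgfbi-bearing members the count of 28 became 17 with DESeq2 (14 of them among the 28) and 113 with no low-count filter. With a sex covariate it was 7, of which 3 were among the 28. It became 59 with at least 4 genes, 1 after thinning and 2 without mixed barcodes. Leaving out 1 library at a time gave 2 (without KO1) to 79 (without KO3) and 7 (without KO2) to 31 calls. The cause of these shifts was not tested. The replicate block, in a pairing that rests on shared numbers only, gave 177 and 149 calls, and deviations of same-numbered libraries correlated at -0.226 and -0.0493 in all members and at 0.0764 and 0.0875 in Tgfbi-bearing ones.

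Genotype by class counts against alveolar fibroblasts went from 26 to 1 with the sex covariate, 6 in Tgfbi-bearing members and 2 to 29 without 1 library, and in Tgfbi-bearing members from 6 to 12 with library size alone and 6 to 10 without 1 library. Against smooth muscle they went from 1 to 0 with the sex covariate (391 at an unadjusted p under 0.05, edgeR), 5 with at least 4 genes, 8 without mesothelial barcodes, 2 in Tgfbi-bearing members and 2 to 10 without 1 library, and in Tgfbi-bearing members from 2 to 0 with the sex covariate (372 unadjusted, edgeR), 7 with at least 4 genes and 0 to 5 without 1 library. These class fits were not run with DESeq2.

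The log2 fold change of Crh ranged from 1.32 to 1.64 in all members and from 1.70 to 2.05 in Tgfbi-bearing ones without 1 library, and was 1.37 and 1.43 after thinning, where it did not pass. Agt passed in all members at -1.22 without a filter, -1.73 with the replicate block, -1.46 with at least 4 genes and -1.11 without mesothelial barcodes. In Tgfbi-bearing members it passed at -0.91 with library size alone, -0.91 with DESeq2, -0.92 without a filter, -1.10 with the block and -0.85 with at least 4 genes. Without 1 library it ran from -1.67 to -0.92 (past the threshold without KO3) and from -1.07 to -0.69 (past it without KO1). With the sex covariate it was -0.61 and -0.66 and did not pass. The Nkx6-1 log2 ratio, here of the group means of library CPM and not of pooled UMIs, went from 1.25 to 2.68 with at least 4 genes. It ran from 0.39 (without KO2) to 1.71 without 1 library. Plac8, which did not pass, turned to -0.41 after thinning, Zswim8 to -0.20 without mixed barcodes, and Xist to 0 with the sex covariate. The share of kept barcodes, KO minus Het, turned to -0.0921 points after thinning, -0.160 for Tgfbi-bearing members and -0.129 without KO1, within -0.129 to 0.463 without 1 library. The share of mesenchymal barcodes moved from -6.07 points to -5.16 with at least 4 genes, -8.19 after thinning and -7.10 for Tgfbi-bearing members. Only Crh and Igfbp3, of the 28 genes called in Tgfbi-bearing members, held without every library in turn and with the sex covariate. KO2 gave 26 Tgfbi-bearing cells, the fewest, which limits the precision of its levels.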
